A study of Mus musculus with 24 samples.

Results

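The additivity of Crebbp loss and Kmt2d loss on chromatin accessibility was measured with a factorial model over 17 of the 24 samples of the series, and over 63881 autosomal peaks of the 65483 consensus peaks. The members were all samples with a column in the count table: 4 WT, 4 C, 4 K and 5 CK mice. The other 7 samples, sorted centroblasts and centrocytes from WT mice, were not analysed here. Each sample was an ATAC-seq library of germinal centre (GC) B cells sorted from 1 mouse spleen 10 days after immunization with sheep red blood cells.

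All 4 genotypes carried Cg1Cre+/-, a Cre recombinase at the Cγ1 locus that acts in B cells activated into the GC reaction. WT mice carried only this Cre. C mice also had 1 floxed Crebbp allele (Crebbp fl/+), K mice had 1 floxed Kmt2d allele (Kmt2d fl/+), and CK mice had both, so each loss was heterozygous and the second allele remained. The study describes the mice as female and on a C57BL/6J background. The 11 chromosome Y peaks of the table carried signal in 9 of the 17 libraries, 2 WT, 2 C, 3 K and 2 CK, so these libraries went against that description. Their summed signal was at least 75.4 CPM, counts scaled to a common library size, in those 9 and at most 0.0566 CPM in the other 8. Autosomal peaks alone are described, and with the Y signal as a covariate the counts of called peaks given below were 237 for Crebbp, 6183 for Kmt2d and 8 for the interaction.

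CREBBP is a histone acetyltransferase that places H3K27 acetylation at active enhancers, and KMT2D is a methyltransferase that places H3K4 monomethylation at the same elements. Both are coactivators recruited by transcription factors, and both genes are frequently mutated in follicular and diffuse large B-cell lymphomas, often together. ATAC-seq reads where the Tn5 transposase can enter chromatin, so it reports open promoters and enhancers and not the histone marks themselves.

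The model gave 3 values per peak on the log2 scale. The Crebbp main effect was the mean of C minus WT and CK minus K, and the Kmt2d main effect was the mean of K minus WT and CK minus C. The interaction was the Kmt2d effect in mice that had lost Crebbp minus the Kmt2d effect in mice that had not, and 0 means that log2 changes add, so that folds multiply. A peak was called at an adjusted p under 0.01 from edgeR's quasi-likelihood test.

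The libraries held 17483706 to 21857738 fragments in peaks and did not separate the genotypes by depth. The GC and B-cell markers Bcl6, S1pr2, Mef2b, Cd79a and Pax5 each had 72.9 CPM or more summed over their peaks in every mouse, above the median of 42.7 CPM over all genes. Accessibility does not check the targeted alleles: the peaks assigned to Crebbp, on chromosome 16, summed to 52.6 ± 1.08 CPM in WT (SD, n = 4) and 52.1 ± 2.93 in C (n = 4), and those of Kmt2d, on chromosome 15, to 58.2 ± 1.89 in WT and 59.5 ± 2.67 in K (n = 4), so the lost exons left no trace in these sums.

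The sequences of the regions that lead the results are given 5′ to 3′ with CpG dinucleotides in capitals (mm10; the promoters are RefSeq sequences of GRCm38, the same build). The first is the centre of the peak in an intron of Ablim1 that had the lowest interaction p, chr19:57112858-57113157, plus strand. The next is the intergenic peak near Mks1 with the lowest p after it, chr11:87841240-87841539, plus strand. The lowest p for a peak lost with Crebbp was near Cpeb4, chr11:31815054-31815353, and the lowest for a distal peak lost with Kmt2d was near Grik3, chr4:125481384-125481683, both plus strand. The 250 bases before the start of Hjurp, chr1:88277580-88277829, lie in the promoter peak called for the interaction, and those of Trim2, chr3:84304776-84305025, in a promoter gained with Kmt2d loss, both on the minus strand.
Ablim1 intron: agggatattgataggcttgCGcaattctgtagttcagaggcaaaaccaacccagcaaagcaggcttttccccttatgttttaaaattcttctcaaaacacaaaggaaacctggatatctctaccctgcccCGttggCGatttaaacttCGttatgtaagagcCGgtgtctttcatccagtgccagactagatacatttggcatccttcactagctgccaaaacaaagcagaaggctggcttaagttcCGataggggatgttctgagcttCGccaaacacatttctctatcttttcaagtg
Near Mks1: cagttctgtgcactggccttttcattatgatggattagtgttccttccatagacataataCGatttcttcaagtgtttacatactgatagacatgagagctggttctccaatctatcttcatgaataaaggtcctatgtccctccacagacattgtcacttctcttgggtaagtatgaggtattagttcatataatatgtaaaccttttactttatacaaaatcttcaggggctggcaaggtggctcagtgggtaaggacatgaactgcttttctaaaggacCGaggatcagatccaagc
Near Cpeb4: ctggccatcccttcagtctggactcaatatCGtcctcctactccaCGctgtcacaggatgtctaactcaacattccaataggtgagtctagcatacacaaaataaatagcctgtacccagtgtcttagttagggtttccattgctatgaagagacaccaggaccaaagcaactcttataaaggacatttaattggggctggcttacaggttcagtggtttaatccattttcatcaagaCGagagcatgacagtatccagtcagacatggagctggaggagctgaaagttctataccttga
Near Grik3: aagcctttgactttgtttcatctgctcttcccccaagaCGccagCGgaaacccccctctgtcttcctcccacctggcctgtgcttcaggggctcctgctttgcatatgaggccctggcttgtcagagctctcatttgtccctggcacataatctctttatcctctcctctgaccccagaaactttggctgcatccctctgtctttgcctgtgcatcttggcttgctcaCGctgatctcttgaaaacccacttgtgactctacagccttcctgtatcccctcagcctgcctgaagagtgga
Hjurp promoter: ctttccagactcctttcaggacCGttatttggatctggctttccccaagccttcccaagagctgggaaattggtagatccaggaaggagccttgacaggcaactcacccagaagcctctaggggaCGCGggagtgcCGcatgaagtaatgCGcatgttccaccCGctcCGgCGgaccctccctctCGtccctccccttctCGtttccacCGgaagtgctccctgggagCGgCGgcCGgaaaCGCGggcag
Trim2 promoter: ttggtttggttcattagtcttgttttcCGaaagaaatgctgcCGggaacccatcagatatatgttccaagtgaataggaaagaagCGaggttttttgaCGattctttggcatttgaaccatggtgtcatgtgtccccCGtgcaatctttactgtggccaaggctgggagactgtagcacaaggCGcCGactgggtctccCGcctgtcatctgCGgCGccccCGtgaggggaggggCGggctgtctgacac

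The Hjurp promoter held 16 CpG and that of Trim2 held 12, against a median of 6 over 32851 RefSeq promoters. The 250 bases before the start of Pm20d2, chr4:33189738-33189987, held 5. They lie only partly in its promoter peak, chr4:33188260-33189867, which was also gained with Kmt2d loss. The stretch had 42.0% GC and the peak 60.4%. The windows near Mks1, Cpeb4 and Grik3 held 2, 3 and 3, and the Ablim1 window held 7. These windows are 300 bases long, and the promoter stretches 250.

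Loss of 1 Kmt2d allele changed many more regions than loss of 1 Crebbp allele, and departures from additivity were rare. For Kmt2d, 3101 autosomal peaks were gained (4.85% of those tested) and 2793 were lost (4.37%). For Crebbp, 84 peaks were gained (0.131%) and 96 were lost (0.15%). The interaction was called at 7 peaks (0.011%), 4 positive and 3 negative. At an unadjusted p under 0.05 the interaction passed at 2396 peaks, 3.75% of all, the Crebbp main effect at 12.6% and the Kmt2d main effect at 31.3%. DESeq2 called 11 peaks for the interaction. The standard error of the interaction had a median of 0.199 over all peaks, so at most single peaks only an interaction well above that size could be detected.

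The Kmt2d change was split between promoters and distal regions. Of the peaks gained with Kmt2d loss, 2048 of 3101 (66.0%) lay within 1 kb of the transcription start site (TSS) of a protein-coding gene, whereas 19.9% of all autosomal peaks did. Of the lost peaks, 119 of 2793 (4.26%) were promoters. Among the 12699 promoter peaks 17.1% were called, against 9.12% of exonic, 7.42% of intronic, 6.29% of intergenic peaks up to 100 kb from a TSS and 8.04% of those beyond. Intronic peaks were mostly lost, 1378 against 336 gained. For Crebbp, called shares ran from 0.252% to 0.325% over the same 5 classes, so no class stood out, although promoters were more often gained (24) than lost (8) and intergenic peaks up to 100 kb more often lost (44) than gained (14). The 7 interaction peaks were 1 promoter, 1 exonic, 3 intronic and 2 intergenic.

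**Figure D1:**
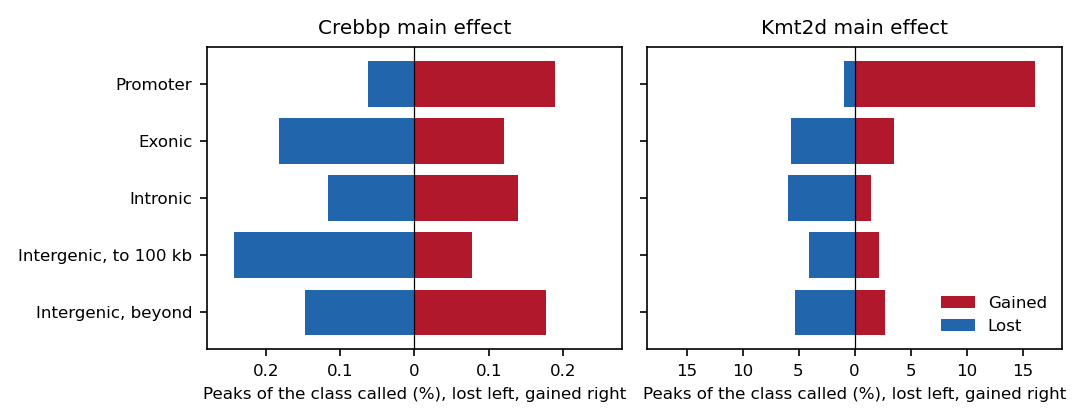
Share of the autosomal peaks in each region class (%, horizontal axis) called gained (right, red) or lost (left, blue) for the Crebbp main effect (left panel) and the Kmt2d main effect (right panel, on a wider scale). For Kmt2d, promoters stand out with 2048 of 12699 peaks gained, and for Crebbp every class lies under 0.33% called.

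Called peaks followed their GC content. The median GC content was 59.5% at peaks gained with Kmt2d loss and 46.1% at those lost, against 48.2% over all peaks. With the peaks cut into 5 bins of GC content, the richest bin held 2198 of the gained peaks and 144 of the lost, and the poorest bin held 95 gained and 763 lost. Among distal peaks the richest bin also had more gained (355) than lost (115) and the poorest bin 92 gained and 745 lost, so the same order was seen away from promoters. When library effects on GC content were removed in 20 bins, 4252 peaks were called for Kmt2d, with 1710 gained and 2542 lost, so the share gained moved from 52.6% to 40.2%. The part of GC content in the change was not tested. 

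Each mouse was also given 1 value, the mean log2 CPM of promoter peaks minus that of distal peaks. It was 2.691, 2.72, 2.568 and 2.596 in the 4 WT mice, and 2.674, 2.659, 2.592 and 2.645 in the 4 C mice. It was 2.865, 2.808, 2.692 and 2.708 in the K mice, and 2.856, 2.783, 2.719, 2.773 and 2.79 in the CK mice. In K 2 mice and in CK 1 mouse lay at or under the highest WT value, and the C mice lay within the range of WT. The Kmt2d main effect was 0.133 (exact two-sided permutation test within each Crebbp status, p = 0.00102, 8820 arrangements) and the Crebbp main effect was 0.0073 (p = 0.802). The interaction was 0.0173 with a 95% interval of -0.113 to 0.148 from the spread of unpaired mice. Within the 4 replicate numbers that all genotypes hold, a comparison made after the values were seen, K minus WT was 0.174, 0.089, 0.124 and 0.111 and CK minus C was 0.182, 0.124, 0.127 and 0.128. The interaction was then 0.0158 with a 95% interval of -0.00619 to 0.0377, so the width of the interval depends on whether the numbers mark a shared batch, which the labels do not say. With the 20 GC bins centred, the Kmt2d shift was 0.036 (exact permutation p = 0.00941).

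**Figure D2:**
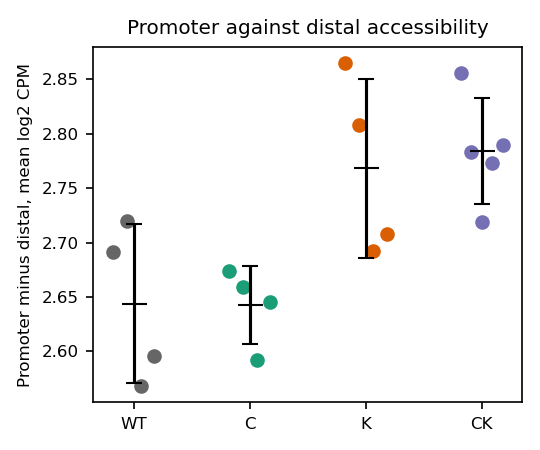
Mean log2 CPM of promoter peaks minus that of distal peaks (vertical axis, log2 CPM; the axis does not start at 0) for each mouse, with bars for the mean and SD of each genotype. The K and CK means, 2.77 and 2.78, sit above the WT and C means, both 2.64.

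The effect of Kmt2d loss was nearly the same size in mice with and without the Crebbp loss. At the 3101 gained peaks the median change was 0.328 for K against WT and 0.315 for CK against C, and at the 2793 lost peaks it was -0.403 and -0.38. Those comparisons use no mouse in common, although both entered the main effect that chose the peaks. The Crebbp main effect at the same peaks was a median of 0.0458 at gained and -0.0438 at lost peaks. The signed interaction, the interaction multiplied by the sign of the main effect, is negative where the effects are less than additive. Its estimate is nearly uncorrelated with that of the main effect by design (correlation -0.0526 from the group sizes). Over the 5894 Kmt2d peaks its median was -0.0066, with 48.1% above 0, and over all autosomal peaks it was -0.00607 with 48.3% above 0. At 5723 of the called peaks (97.1%) the 95% interval of the interaction left the Kmt2d effect with the same sign in both backgrounds. This rule takes the main effect at its estimate, and 19.7% of all peaks met it. Called peaks were chosen for a main effect large beside its error, so a high share follows largely from that choice. The share was also high at the peaks called for Crebbp, so it is not read as evidence of additivity. The signed interaction was slightly positive at Kmt2d promoters (median 0.0213, n = 2167) and slightly negative at distal classes, from -0.0148 at exonic to -0.0557 at peaks beyond 100 kb from a TSS. Mice of 1 genotype had an SD of 0.051 in their mean signed level over the called Kmt2d peaks, and of the 5 class medians the one beyond 100 kb was larger than that in size.

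Peaks chosen in 1 pair of genotypes were then read in the other pair, which shared no mouse with it. K against WT called 954 peaks (1.49%). At the 419 gained, CK against C had a median of 0.383 and the same sign at 404 peaks (96.4%). At the 535 lost, it had -0.418 and the same sign at 515 (96.3%). Values in the pair that chose the peaks were larger, 0.549 and -0.639, as choosing on a pair inflates it. Read the other way, the 585 gained and 498 lost peaks of CK against C had 0.358 and -0.464 in K against WT, with the same sign at 582 and 497. For Crebbp, C against WT called 100 peaks (0.157%). CK against K then had 0.275 at the 34 gained, with the same sign at 24, and -0.418 at the 66 lost, with the same sign at 59. The values in C against WT were 1.38 and -0.972. Read the other way, CK against K called only 6 of the 63881 peaks, 3 gained and 3 lost. In C against WT these had 0.273 and -1.08, with the same sign at 2 and 3. Across all 63881 peaks, the 2 Kmt2d contrasts had a correlation of 0.504 and the 2 Crebbp contrasts 0.259, and at the 29983 peaks with at least 5 CPM 0.736 and 0.429. These are descriptions over peaks that share libraries and base composition.

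The lowest Kmt2d p belonged to a peak with similar levels in K and CK and in WT and C. The intergenic peak 8.65 kb from Grik3, which encodes a kainate receptor subunit, had 6.44, 7.15, 7.26 and 6.87 CPM in WT and 6.56, 5.41, 6.17 and 7.59 CPM in C. It had 2.44, 2.66, 1.94 and 1.89 CPM in K and 2.46, 2.42, 2.56, 2.49 and 3.11 CPM in CK, so the groups with and without Kmt2d loss did not overlap. Its Kmt2d main effect was -1.47 ± 0.092 (SE; adjusted p = 6.32e-10), its Crebbp main effect 0.06 ± 0.0933 (adjusted p = 0.862) and its interaction 0.34 ± 0.187 (adjusted p = 1).

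The gained Trim2 promoter, chr3:84304384-84305771, was at 13.7, 14.3, 13.3 and 13.3 CPM in WT and 13.8, 14.7, 17.1 and 15.5 CPM in C. It was at 21, 21.7, 18.4 and 22.2 CPM in K and at 23.3, 22.5, 21.7, 22.4 and 26.4 CPM in CK. Trim2 is a ubiquitin ligase of the tripartite motif family, and every mouse with Kmt2d loss lay above every mouse without it. The Kmt2d main effect was 0.61 ± 0.0565 (adjusted p = 5.36e-07) and the interaction -0.003 ± 0.112.

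The other peaks named by the lowest p were Sipa1l3, Tcf4 and Pm20d2, gained with Kmt2d loss by 0.96, 0.67 and 0.64, and Asphd1, Fam19a4 and Sipa1l1, lost by -0.87, -1.67 and -0.95. In each of these the groups with and without Kmt2d loss did not overlap, and no interaction was called (adjusted p = 1 at each). Tcf4 encodes an E protein of the B-cell lineage, whose promoter peak averaged 26 ± 3.69 CPM in WT (SD, n = 4) and 30.9 ± 2.85 in C (n = 4), against 43.9 ± 3.82 in K (n = 4) and 46.3 ± 1.66 in CK (n = 5). The intronic Fam19a4 peak was the weakest of them, at 2.31 ± 0.502 CPM in WT and 0.545 ± 0.108 in K.

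Peaks called for Crebbp departed from additivity in 1 direction. The median signed interaction over the 180 peaks was -0.213, with 36 of them above 0, against -0.0157 and 45.6% over all autosomal peaks. The interaction passed an unadjusted p under 0.05 at 57 of the 180, against 3.75% of all peaks. At the gained peaks the median effect was 0.582 in C against WT and 0.513 in CK against K, and at the lost peaks -0.842 and -0.502. Mice of 1 genotype had an SD of 0.088 in their mean signed level over these peaks. With the replicate number as a block, the median signed interaction over the peaks then called was -0.046, smaller in size than that SD. The peaks were chosen by the mean of the 2 contrasts, so an equal size in each was not imposed.

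**Figure D3:**
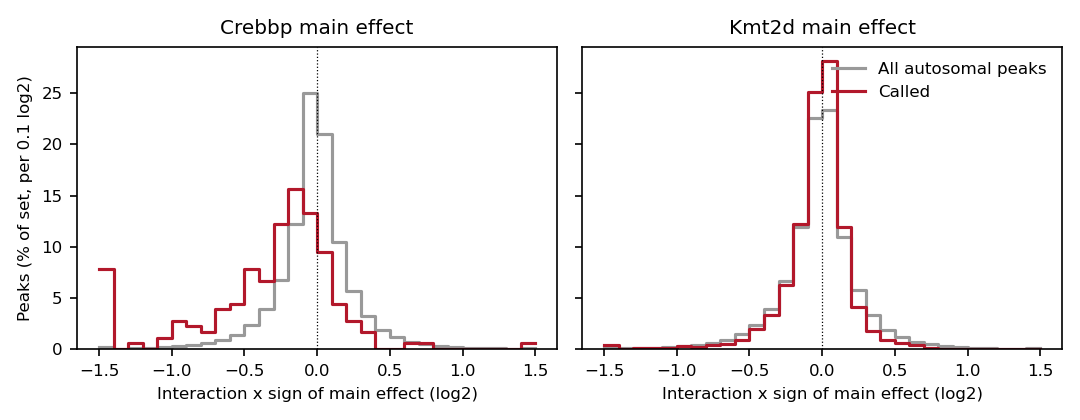
Signed interaction (horizontal axis, log2; values past the ends are put in the end bins) over all autosomal peaks (grey) and the called peaks (red), as a percentage of each set per 0.1 log2, for the Crebbp main effect (left) and the Kmt2d main effect (right). The Kmt2d peaks lie around 0 like all peaks (median -0.0066), and the Crebbp peaks are shifted below 0 (median -0.213).

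The Crebbp peaks were also crowded along the genome. Of 498 windows of 5 Mb that held an autosomal peak, 8 held 5 or more Crebbp peaks, together 78 of the 180. Kmt2d peaks were found in 445 of the windows for gained and 435 for lost peaks. Chromosomes 11 and 1 held 47 and 37 Crebbp peaks (0.939% and 0.843% of their peaks, against 0.282% of all), and chromosome 10 held 0. The 2 windows with the most were on chromosome 11, from 30 to 35 Mb with 22 of 190 peaks and from 40 to 45 Mb with 12 of 119. In the 8 windows the median signed interaction was -0.346, with 2 of 78 above 0. At the other 102 peaks it was -0.0942, with 34 (33.3%) above 0.

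To see which mice made these values, each mouse was placed on a scale where 0 is the mean of WT and 1 the mean of C, as the median over the called peaks of a window. WT and C mice define the scale, so only K and CK mice are read from it. On chromosome 11 at 30 to 35 Mb, K mice 1, 2 and 4 were at 0.17, 0.16 and 0.12, and K mouse 3 was at 1.01, among the C mice. The same mouse was at 0.94 at 40 to 45 Mb on that chromosome, where the other K mice were at -0.02 to 0.21. All CK mice were at 0.94 to 1.07 in these 2 windows. 

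In other windows different mice stood apart. On chromosome 7 at 100 to 105 Mb, K mice 3 and 4 were at 0.92 and 0.84 and K mice 1 and 2 at 0.13 and 0.18. On chromosome 1 at 130 to 135 Mb, CK mice 4 and 5 were at 0.2 and 0.3 and the other CK mice at 0.93 to 1.14. On chromosome 5 at 60 to 65 Mb, CK mice 4 and 5 were at -0.01 and 0, and CK mice 1, 2 and 3 at 0.92 to 1.08. Values between the levels were also found, as in the K mice at 0.25 to 0.51 on chromosome 5 at 110 to 115 Mb and at 0.45 to 1.04 on chromosome 1 at 85 to 90 Mb. Over the 102 peaks elsewhere, the K mice lay at 0.3 to 0.49 and the CK mice at 1.12 to 1.33, with no mouse apart. The windows and the scale were chosen after the values were seen. Without K mouse 3 the median signed interaction of the Crebbp peaks was -0.102. Of the 7 interaction peaks described below, 6 lie in 2 of these windows, on chromosome 1 at 85 to 90 Mb and on chromosome 11 at 85 to 90 Mb. In the windows where mice of 1 genotype differ as blocks, an effect of genotype and a difference between single mice, such as in the genetic background around a peak, cannot be told apart, and the background of each mouse was not tested.

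**Figure D4:**
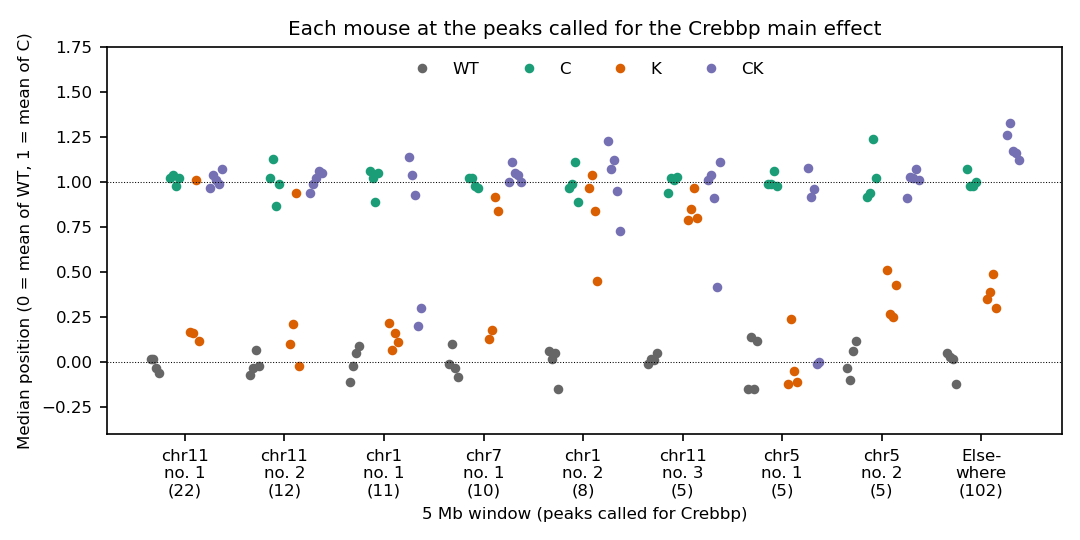
Position of each mouse (vertical axis, 0 = mean of WT, 1 = mean of C, median over peaks) at the peaks called for the Crebbp main effect, in the 8 windows of 5 Mb with 5 or more such peaks, numbered per chromosome by falling count, and elsewhere (number of peaks in parentheses). K mouse 3 lies at 1.01 and 0.94 in the first 2 windows, and CK mice 4 and 5 lie near 0 in chr5 no. 1.

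The peak near Cpeb4, which encodes a protein that binds cytoplasmic polyadenylation elements, shows the pattern in CPM. It had 29.9, 30.4, 28.8 and 32.7 CPM in WT and 13.9, 13.6, 15.5 and 14.5 CPM in C. It had 29.7, 29.7, 16.8 and 30.7 CPM in K and 14.9, 14.3, 15.7, 16.3 and 14.8 CPM in CK. K mouse 3 lay far under the other K mice, close to the level of C. The Crebbp main effect was -0.95 ± 0.0819 (adjusted p = 4.42e-07), and -1.03 without K mouse 3.

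The exonic peak nearest to Il9r, the receptor of interleukin 9, was in the same window at chr11:32189791-32190877. It had 0.372, 0.313, 0.141 and 0.111 CPM in WT, 5.29, 4.47, 7.23 and 6.53 CPM in C, and 3.14 to 6.01 CPM in CK. In K it had 0.425, 0.566, 3.72 and 0.323 CPM, again with K mouse 3 apart. Its Crebbp main effect was 3.23 ± 0.334 (adjusted p = 6.64e-06), the largest of the peaks named for Crebbp. The other gained peaks were the Cntn2 promoter (0.67) and an intronic Ctse peak (0.70), both on chromosome 1 at 130 to 135 Mb, where CK mice 4 and 5 had 12.4 and 13.1 CPM at Ctse against 18.9 to 20 in the other CK mice. The other lost peaks were a neighbouring one near Cpeb4 (-1.05), 1 near Trim5 (-0.92) and an intronic Atp10b peak (-0.89). The Trim5 peak lies in the chromosome 7 window, and had 48.7, 45.6, 27.1 and 26.2 CPM in K mice 1 to 4. Whether fragments at Trim5 are shared with similar neighbouring genes was not tested.

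The interaction peaks fell in 3 places, and at 4 of the 7 the 4 WT mice lay apart from all 13 mutant mice. On chromosome 1, 3 of the peaks were nearest to Hjurp, the chaperone that loads the centromeric histone. Its promoter peak, chr1:88276572-88278094, had 169, 170, 166 and 173 CPM in WT. It had 117 to 125 CPM in C, 119 to 125 in K and 114 to 132 in CK. Each single loss gave the level that both together gave: K against WT was -0.48 ± 0.0424, C against WT -0.48 ± 0.0424, CK against C -0.01 ± 0.0405 and CK against K -0.01 ± 0.0406. The interaction was 0.47 ± 0.0587 (adjusted p = 0.000453). The intronic peak, chr1:88252544-88253867, had an interaction of 0.58 ± 0.0814 (adjusted p = 0.00313), with 193 ± 7.21 CPM in WT and 115 to 151 CPM in single mutants. The exonic peak, chr1:88259306-88262226, had 0.75 ± 0.11 (adjusted p = 0.00413).

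On chromosome 11, 3 peaks had their lowest values in WT. The intergenic peak 11.1 kb from Mks1, a gene of the ciliary transition zone, was at chr11:87840663-87842115, with 1.12, 0.836, 1.41 and 1.16 CPM in WT and 11.9, 13.2, 14.7 and 14.7 CPM in C. It had 8.38, 9.63, 10.8 and 10.2 CPM in K and 8.96, 8.02, 10.8, 0.897 and 8.7 CPM in CK. CK mouse 4 was at the level of WT, and all other mutant mice were far above it. The interaction was -3.96 ± 0.48 (adjusted p = 0.000393), and -3.67 without CK mouse 4.

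The intergenic peak 33.8 kb from Akap1, which anchors protein kinase A to mitochondria, had 1.93 to 3.66 CPM in WT and 6.51 to 8.76 CPM in the single mutants. In CK mouse 4 it had 4.63 CPM, and 7.19 to 8.82 in the other CK mice. Its interaction was -1.52 ± 0.225 (adjusted p = 0.00433). The intronic peak of Msi2, which encodes an RNA-binding protein, had 7.83 to 10.2 CPM in WT and 14.3 to 18.2 CPM in the single mutants. In CK mouse 4 it had 9.41 CPM, within the WT range. Its interaction was -1.14 ± 0.173 (adjusted p = 0.00652). 

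The intronic Ablim1 peak, chr19:57112611-57113403, differed in another way. Ablim1 encodes an actin-binding LIM protein. The peak had 7.24, 7.21, 7.73 and 4.21 CPM in WT and 11.4, 11.6, 8.59 and 9.03 CPM in C. It was close to empty in the K mice, with 0.212, 0, 0.314 and 0.323 CPM, and open in the CK mice, with 10.9, 12.9, 10.9, 5.33 and 4.78 CPM. The interaction was 4.70 ± 0.514 (adjusted p = 0.000112). K against WT was -4.87 ± 0.435 and CK against C was -0.18 ± 0.218, so these estimates differed. CK mice 4 and 5 lay under the other CK mice. Whether the difference at this peak comes from genotype or from the genetic background of the mice was not tested. Leaving out each mouse in turn, the Ablim1, Mks1 and Hjurp promoter peaks kept their call every time. The Msi2 peak lost it without 13 of the mice (adjusted p up to 0.0332), the Akap1 peak without 8 (up to 0.0189), and the exonic and intronic Hjurp peaks without 6 and 5 (up to 0.0189 and 0.0176).

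**Figure D5:**
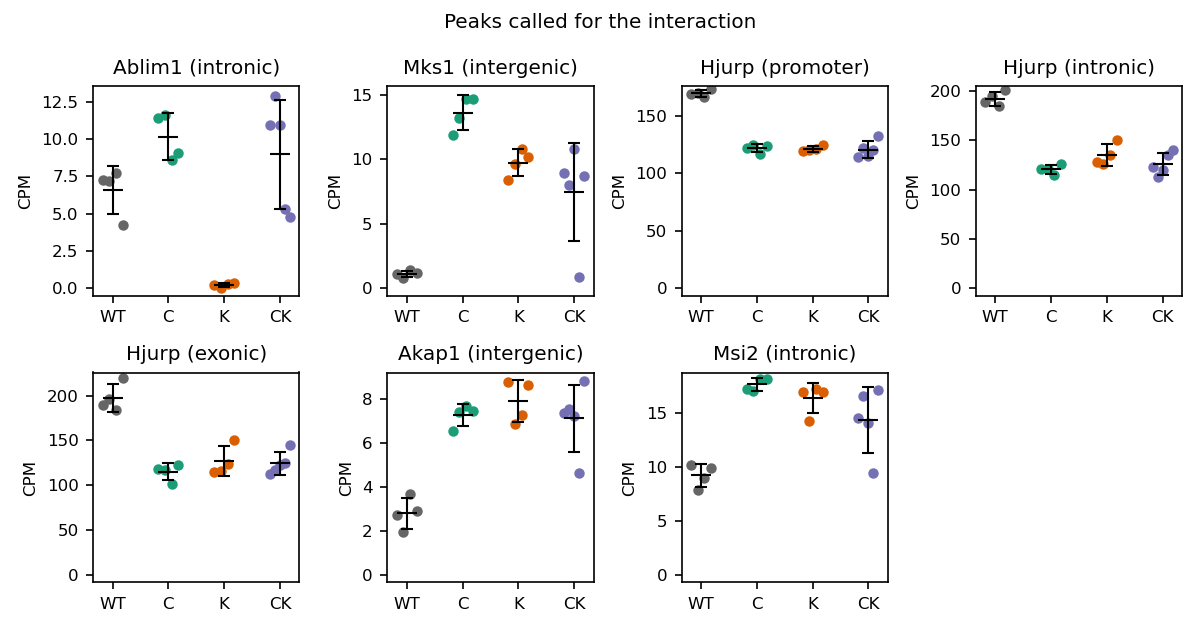
CPM (vertical axis) of each mouse at the 7 autosomal peaks called for the interaction, by genotype, with bars for the mean and SD; the axes start at 0 apart from a small margin. WT stands apart from the other genotypes at Hjurp and Akap1, CK mouse 4 lies at the WT level at Mks1 and Msi2, and the K mice are at 0 to 0.323 CPM at Ablim1.

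Counts were then summed per gene over the peaks nearest to it within 100 kb, for 15116 genes. For Kmt2d, 1970 genes were higher (13%) and 605 lower (4.0%). For Crebbp, 59 were higher (0.39%) and 45 lower (0.298%). The interaction was called for 2 genes (0.0132%), Hjurp (0.59 ± 0.072, adjusted p = 0.000208) and Mks1 (-0.99 ± 0.123, adjusted p = 0.000208). At an unadjusted p under 0.05 it passed at 3.23% of genes. Hjurp summed to 646 ± 27.7 CPM in WT (SD, n = 4), against 414 ± 14.6 in C (n = 4), 440 ± 35.5 in K (n = 4) and 425 ± 31 in CK (n = 5).

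Among genes with the lowest Kmt2d p, Grik3 fell by 1.49 on the log2 scale (± 0.0816), from 8.93 ± 0.557 CPM in WT to 2.85 ± 0.355 in K and 3.37 ± 0.397 in CK. Vipr2, a receptor of vasoactive intestinal peptide, Ifnlr1, the receptor chain of interferon lambda, 1700016K19Rik and Oacyl also fell (-0.58, -0.40, -0.37 and -0.68). The higher genes were Ccdc81 (0.56), Pm20d2 (0.64), Spsb4 (0.55), the receptor tyrosine kinase Ret (0.43) and the kinase Nuak1 (0.68). Vipr2 and Ccdc81 changed sign when only peaks within 10 kb of the TSS were summed, to 0.20 and -0.05, and neither was then called. None of these 10 had a called interaction, the values running from -0.20 at Spsb4 to 0.33 at Grik3.

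Genes with the lowest Crebbp p show how single changes combined. Thyn1 had 25.7 ± 0.419 CPM in WT, 32.1 ± 1.65 in C and 31.4 ± 1.79 in K (SD, n = 4 each), and the CK mice had 38.2 ± 1.89 (n = 5). Both main effects were called, 0.30 ± 0.0384 for Crebbp and 0.27 ± 0.0384 for Kmt2d, with an interaction of -0.04 ± 0.0767, so the CK level was close to the product of the folds. Nr3c2, the mineralocorticoid receptor, had 17.6 ± 2.16 CPM in WT, 21.3 ± 0.973 in C and 22.5 ± 0.975 in K, and the CK mice had 30.5 ± 1.01, with an interaction of 0.16 ± 0.0968. Prelid2 rose with both losses as well (0.94 for Crebbp and 0.60 for Kmt2d). Smim23, on chromosome 11, rose for Crebbp (1.58) but its 4 K mice had an SD of 15.3 CPM around a mean of 16.4. K mouse 3 was at 39.3 CPM, and K mice 1, 2 and 4 were at 10.2, 7.7 and 8.49. The others were Ide, higher by 0.85, and Cpeb4 (-0.45), 2900026A02Rik (-0.48), Trim5 (-0.88), Hjurp (-0.35) and Atp10b (-0.67), lower. The named peaks of Cpeb4, Trim5, Hjurp and Atp10b lie in the windows crowded with Crebbp peaks, so the limit given there holds for these genes. The same is true of Il9r and of Mks1. At Smim23, K mouse 3 stood apart from the other K mice as it did at the Cpeb4 and Il9r peaks.

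The lists of GC biology had few called members for either loss, and their counts are read against the shares of all genes called. For Kmt2d 4.0% of all genes were called lower and 13% higher, and for Crebbp 0.298% lower and 0.39% higher. For Crebbp, Hjurp, on the list of proliferation and mitosis genes, was the only called member of the 14 lists. With so few genes called for Crebbp, lists of this size would hold hardly any. The lone call therefore does not set these lists apart from all genes. For Kmt2d, B-cell receptor signalling had 6 lower members of 19 tested (Blnk, Pik3ap1, Vav1, Cd22, Fcgr2b and Dok3), and a list median of -0.06 against 0.04 over all genes. The adaptor Pik3ap1 was at -0.10, the exchange factor Vav1 at -0.11, and the inhibitory receptors Cd22 and Fcgr2b at -0.13 and -0.14 (SE 0.0219 to 0.0336). Confinement and chemotaxis had 3 lower members of 15, among them Rgs1 (-0.22) and the chemokine receptor Ccr7 (-0.14). Plasma cell and memory exit had 3 lower of 18: Jchain, the joining chain of secreted antibody (-0.25), Tnfrsf17, the receptor BCMA (-0.22), and Zbtb32 (-0.12).

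MHC class II presentation had 2 lower members of 11, the class II transactivator Ciita (-0.14) and H2-DMb1 (-0.17), and T-cell help and costimulation had 2 lower of 18, Slamf1 (-0.18) and Pdcd1lg2 (-0.15). Ciita and Pdcd1lg2 had the opposite sign, without a call, when only peaks within 1 kb of the TSS were summed (0.07 and 0.09). NF-kB and CD40 signalling had 1 lower of 19, Traf5 (-0.09), and cytokine and JAK-STAT signalling 1 lower of 22, Il6ra (-0.12), both near the share of all genes called lower. Among coactivators and opposing repressors, 3 of 17 were higher, against 13% of all genes: Crebbp itself (0.17), the demethylase Kdm1a (0.18) and the deacetylase Hdac2 (0.16). Tcf4 (0.15) was the called member of 24 GC transcription factors, and Ccnd3 (-0.09) and Hjurp (-0.26) were those of 20 proliferation genes. In none of these lists but that of Hjurp was an interaction called, the lowest adjusted p being 1.

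Genes of known interest without a call were Cd86, a costimulatory ligand, at -0.004 ± 0.0271 for Crebbp and -0.03 ± 0.0271 for Kmt2d, Bcl6, the master repressor of the GC, at -0.05 ± 0.0274 and 0.04 ± 0.0274, Il21r at -0.01 ± 0.0262 and -0.06 ± 0.0262, and Zbtb20 at -0.004 ± 0.0278 and -0.02 ± 0.0278. Il9r summed over 6 peaks was at 0.38 ± 0.0813 for Crebbp (adjusted p = 0.0125). At this gene K mouse 3 had 23.3 CPM and the other K mice 16.6 to 17.4 CPM, so the limit of the crowded windows holds here too. Their interactions lay between -0.13 at Il9r and 0.05 at Il21r, each with an adjusted p of 1.

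Some markers of other cells were called for Kmt2d. Of 8 T-cell markers tested, Cd4 (-0.66), Bcl11b (-0.45) and Cd28 (-0.24) were lower, and the list summed to 179 to 196 CPM in WT and 158 to 182 in C, against 156 to 179 in K and 147 to 163 in CK. Among the 8, only Cd3e averaged under 1 CPM over all mice. In WT, Cd4 averaged 7.25 CPM, Bcl11b 5.78 CPM and Cd28 59.3 CPM. Of 9 naive follicular B-cell markers tested, 3 were lower, among them Fcer2a (-0.50) and Ccr7, and Bcl2 (0.15) was higher, with sums of 1070 to 1130 CPM in WT and 1020 to 1090 in K. Of 8 myeloid markers, Mpo was higher (0.40) and Itgam lower (-0.30), with sums of 85.9 to 94 CPM in WT and 87 to 91.1 in K, and of 6 erythroid markers Tal1 was higher (0.26), with sums of 72.5 to 79 CPM in WT and 75.7 to 89.5 in K. Each of these myeloid and erythroid counts is 1 gene, beside 13% of all genes called higher and 4.0% lower. The sums of both lists overlapped between WT and K. In CK the myeloid sums of 84.4 to 98.9 CPM also overlapped WT. The CK erythroid sums of 81 to 89.6 CPM lay above all WT mice, and the CK naive sums of 1030 to 1060 CPM lay below them. In bulk libraries fewer cells of a type and less open chromatin per cell cannot be told apart, and the part of these cells in the Kmt2d changes was not tested.

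Accessible distal clusters and the surroundings of the floxed genes were read for the 3 terms as well. In the 500 most accessible clusters of distal peaks joined within 10 kb, 4746 peaks, the median Kmt2d effect was -0.0714, against -0.0244 in other distal peaks. In the clusters 363 peaks were lost (7.65%) and 66 gained (1.39%), against 4.98% and 2.13% of other distal peaks. The cluster peaks had a median of 10.4 CPM against 2.9, so a change of a given size is more easily called in them. The median Crebbp effect was -0.0252 against 0.00874, and the median interaction -0.0133 against -0.00412. Peaks within 10 Mb of Crebbp (396) held 36 called for Kmt2d and 2 for Crebbp, and those within 10 Mb of Kmt2d (678) held 64 and 1, so the floxed regions held shares of Kmt2d calls (9.09% and 9.44%) like that of all peaks (9.23%).

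The central 300 bases of each peak were searched for 11 short motifs on both strands. The octamer ATGCAAAT, bound by OCT factors, was in 7.55% of the 2674 distal peaks lost with Kmt2d, against 4.89% of all 51182 distal peaks. GAGGAAGT, of the PU.1 type, was in 7.55% against 6.65%, and TGTGGTTT, of the RUNX type, in 4.0% against 3.19%. At the 2048 promoters gained with Kmt2d loss, GGGGCGGGG, of the KLF type, was in 19.1% against 13.5% of all 12699 promoter peaks, and the ETS-type CCGGAAGT in 1.66% against 4.43%. The median number of CpG in this window was 33 at the gained promoters and 22 at all promoter peaks. Among the 148 distal peaks called for Crebbp, TGANTCA, of the AP-1 type, was in 13.5% against 10.2% of all distal peaks, the PU.1-type motif in 2.03% against 6.65%, and the KLF-type motif in 4.05% against 1.81%. These shares are descriptions and were not tested.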

How the data were processed

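Omni-ATAC libraries of sorted splenic GC B cells, 1 per mouse, were compared over 17 samples. Per the file header, the authors deposited raw fragment counts per consensus peak, made on mm10 by featureCounts 2.0.1, which counted a fragment for each peak that at least 0.2 of its bases overlapped. The authors ran the nf-core ATAC-seq pipeline, and its peak caller settings are not given in the sources used here. No per-sample column was left out.

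Peaks with a summed count of at least 10 were fitted in edgeR 4.0.16 (R 4.3.3) with TMM factors, 1 coefficient per genotype and quasi-likelihood tests, adjusted by Benjamini-Hochberg over the whole table, with 17483706 to 21857738 fragments per mouse. Each peak was assigned to the nearest protein-coding TSS of GENCODE M21 within 100 kb. CPM use TMM-scaled library sizes. Standard errors are of the fitted log2 values. Scripts were tested on simulated data.

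Named peaks were all those called for the interaction and, per main effect, the 4 gained and 4 lost with the lowest p. Named genes were the 5 higher and 5 lower with the lowest p, called interaction genes, up to 4 called members per list and direction, and Crebbp, Kmt2d, Cd86, Il9r, Zbtb20, Bcl6 and Il21r. Some genes of the lists are not reported here by name. Members and lists were chosen with earlier results of these data known. The labels name each sample as a replicate, so p-values measure the spread between these mice. Alternatives were DESeq2 1.42.0, other scalings and filters, GC bins, the Y signal, other gene links and leaving out each mouse.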

Additional observations from a re-analysis of the deposited data

Results flagged for a closer look

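Groups of 4 or 5 mice were read at the named peaks and for the promoter minus distal value, 92 in all. In 9 of them, all at named peaks, 1 mouse lay apart from the rest by Dixon's criterion, which chance meets in about 1 in 20 groups. In K these were the lowest mouse at the 2 Cpeb4 peaks (16.8 and 4.66 CPM) and the highest at Il9r (3.72 CPM), all K mouse 3, as well as the lowest at Msi2 (14.3 CPM) and the highest at the Pm20d2 promoter (15.6 CPM). In CK they were the lowest at the Mks1 peak (0.897 CPM) and the highest at Grik3 (3.11 CPM). In WT it was the lowest at Ablim1 (4.21 CPM), and in C the lowest at Pm20d2 (9.5 CPM).

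The Kmt2d effect differed between mice with and without Crebbp loss, by the edgeR test of the interaction itself, at Ablim1 (4.70 on the log2 scale), the peak near Mks1 (-3.96), the Hjurp promoter, intronic and exonic peaks (0.47, 0.58 and 0.75), the Akap1 peak (-1.52) and the Msi2 peak (-1.14). Summed per gene it differed at Hjurp (0.59) and Mks1 (-0.99). The calls kept or lost when each mouse was left out are given above. Whether these differences come from genotype or from the genetic background of the mice was not tested.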

How the results depend on the processing

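The number of calls depended on the threshold and the tool. Of peaks called for Crebbp there were 560 at an adjusted p of 0.05, 94 with a log2 value above that of a fold of 1.5, and 383 in DESeq2. For Kmt2d there were 11931 and 1115 under the first 2 rules, and for the interaction 11 in DESeq2. Genes called for Crebbp were 366, 18 and 209 in the same order, and 46 with peaks within 1 kb of the TSS. Genes called for Kmt2d were 4506 and 130, and those for the interaction 4 in DESeq2 and 1 with peaks within 10 kb or 1 kb of the TSS.

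With the replicate number as a replicate block, 525 peaks and 290 genes were called for Crebbp, and 587 peaks with GC bins added. The median signed interaction of Crebbp peaks was -0.046 with the block, -0.0393 with block and GC bins, -0.121 at an adjusted p of 0.05, and -0.0942 without the 8 windows, an alternative added after seeing the data. The labels do not say that a number marks a batch. Of 24 same-numbered pairs 9 had a correlation of deviations over 0.1, with a median of 0.0854 against -0.0418 for other pairs, so pairing was not taken as shown. For the promoter minus distal value, a replicate block added after seeing the data and leaving out CK mouse 5 gave 0.132 for Kmt2d (exact permutation p = 0.00781, the smallest that 256 arrangements can give) and 0.0065 for Crebbp (exact p = 0.664).

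Leaving out each mouse gave 119 to 216 peaks for Crebbp, 4086 to 5955 for Kmt2d and 3 to 12 for the interaction, with 119 without C mouse 1, 3 without WT mouse 2 or 4, C mouse 2 or 3 or K mouse 1, and 12 without K mouse 2. Genes ran from 54 to 115, 1935 to 2692 and 2 to 3, with 54 to 66 for Crebbp without WT mouse 3 or 4, C mouse 1, 2 or 4, or K mouse 4. The median signed interaction ran from -0.299 to -0.102 for Crebbp, the latter without K mouse 3, and from -0.0321 to 0.0147 for Kmt2d. The promoter minus distal shift ran from -0.0054 to 0.0234 for Crebbp and from 0.117 to 0.146 for Kmt2d. 

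The Kmt2d effect reversed at Ccdc81 (-0.0486 within 10 kb), Vipr2 (0.203 within 10 kb or 1 kb), Ciita (0.0661 within 1 kb) and Pdcd1lg2 (0.0896 within 1 kb), where fewer peaks were summed. Kmt2d calls of Traf5 were lost without 11 of the mice, of Bcl2 without 9, of Ccnd3 without 7, of Fcgr2b and H2-DMb1 without 4, of Ciita without 2 and of Cd22 without 1. Libraries with Y signal were not left out, because K would have kept 1 mouse. The cause of these differences was not tested.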
